A study of Homo sapiens with 24 samples.

Results

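The comparison described here set T-47D cells silenced with P-REX1 RNAi #2 against T-47D cells silenced with P-REX1 RNAi #1, both after treatment with HRG. It held 6 of the 24 arrays of the series, 3 for each duplex, chosen by their titles alone, and covered all 21042 probe sets with a gene symbol. T-47D is an established luminal breast cancer cell line that expresses the estrogen receptor. The P-REX1 RNAi #1 duplex and the #2 duplex are separate small interfering RNA duplexes directed at the same transcript, PREX1, and were introduced with a lipid reagent. The transfected cells were kept without serum from 16 h after transfection for 48 h and then received heregulin (HRG), a growth factor that binds ErbB3 and ErbB4, at 20 ng/ml for 6 h, or vehicle. Parental cells, with no RNAi, and NTC cells, with a non-target duplex, made up the control groups, and each of the 8 groups had 3 biological replicates. Values are log2 expression levels from whole-transcript arrays of bulk RNA, so that a difference of 1 is a change of 2-fold.

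P-Rex1 is an exchange factor that loads the small GTPase Rac with GTP. Growth factor receptors and G-protein-coupled receptors both feed into it, and in luminal breast cancer cells it links ErbB3 to Rac. A small interfering RNA guides the Argonaute complex to matching transcripts, and each duplex can in addition reduce transcripts other than its target, in a manner set by its own sequence. Comparing a pair of duplexes against one gene therefore asks which transcripts depend on the choice of duplex. Cultures were compared as bulk RNA, in which fewer cells of a type and less RNA per cell cannot be told apart.

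The arrays of P-REX1 RNAi #2 with HRG were less alike than those of P-REX1 RNAi #1 with HRG. Correlations between replicates of one group lay between 0.996 and 0.999 over the series. Along the second principal component of the series (10.9% of the variance) replicates 1, 2 and 3 of #2 stood at 11.7, -2.4 and -11.3. Replicate 3 is 1 of 4 arrays of the series that stood apart there, and counts of calls without it are given further on. The luminal epithelial markers were high in both cultures, with the mean over 13 markers between 11.08 and 11.09 in the arrays of #1 and between 11.07 and 11.14 in those of #2. Markers of other cell types had lower means in both, with single genes above the array medians of 6.04 to 6.18. The highest, beside LUM, which is described further on, were COL1A1 (7.61 in #1 and 7.28 in #2), CD68 (6.72 and 6.46) and CLDN5 (6.40 and 6.46). The mean over 10 fibroblast markers lay between 5.14 and 5.18 in #1 and between 5.01 and 5.07 in #2, over 9 leukocyte markers between 4.64 and 4.69 in #1 and between 4.64 and 4.73 in #2, and over 8 endothelial markers between 4.47 and 4.53 in #1 and between 4.43 and 4.62 in #2. In #1, 4 markers of each of these lists were below the dim level of 4.27 (the lowest quartile point of any array), and in #2, 4 fibroblast, 3 leukocyte and 3 endothelial markers were.

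Residual PREX1 mRNA under HRG was not called different between the cultures, although the unadjusted confidence interval of the difference lay above 0. The probe set for PREX1 read 8.60, 8.45 and 8.55 in the replicates of #1 and 8.83, 8.57 and 8.80 in those of #2. The groups overlapped, since the lowest array of #2 lay between those of #1. The difference, #2 minus #1, was 0.20 (SE 0.07, 95% confidence interval 0.05 to 0.36) on the log2 scale, with a limma adjusted p of 0.148 (0.0538 with the replicate number as a block) and an exact two-sided permutation p of 0.2, where 3 arrays against 3 cannot give less than 0.1. Relative to the mean of parental and NTC cells with HRG, PREX1 was at 51.1% in #1 and 58.7% in #2. Without HRG it was at 34.9% in #1 and 35% in #2 of the controls without HRG, a level difference of 0.01 (SE 0.07) between the duplexes, and HRG itself lowered PREX1 in the controls by a log2 difference of -1.01. The difference between duplexes passed the adjusted p threshold only without replicate 2 of #2, at 0.28 with a limma adjusted p of 0.0444, and stayed under the 1.5-fold threshold there.

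Transcripts that differed between the duplexes under HRG were nearly all lower with #2. Calls required a limma adjusted p below 0.05 together with a change of more than 1.5-fold. By this rule 87 probe sets differed (0.413%), of which 82 probe sets for 81 genes were lower (0.39% of those tested) and 5 probe sets for 4 genes were higher (0.0238%). The largest fall was 2.74-fold and the largest rise 1.82-fold, 12 probe sets fell at least 2-fold and 0 rose at least 2-fold. In all 87 called probe sets the 3 arrays of one duplex did not overlap the 3 of the other, whereas over all tested probe sets the arrays did not overlap in 8.55% with #2 higher and in 11.1% with #2 lower. The median log2 difference of all tested probe sets was 0.01 and the median size of a difference was 0.08. Without the fold threshold 263 were higher (1.25%) and 760 lower (3.61%). Leaving out replicate 3 of #2 gave 12 higher and 96 lower, leaving out replicate 1 of #2 gave 2 higher and 90 lower, and leaving out replicate 1 of #1 gave 10 higher and 105 lower.

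The falls included secreted proteases, matrix proteins and surface proteins of epithelial cells. The interstitial collagenase gene MMP1 and the stromelysin gene MMP10 lie side by side on chromosome 11 and are induced by growth factors. The 150 bases that end just before the start of MMP10 are shown because HRG raises this gene and because they hold a match to the AP-1 element, through which growth factor signalling is known to act on collagenase genes. They lie on the minus strand of chr11:102780629-102780778 (GRCh38.p14, RefSeq), and capitals mark the TGANTCA match.
MMP10: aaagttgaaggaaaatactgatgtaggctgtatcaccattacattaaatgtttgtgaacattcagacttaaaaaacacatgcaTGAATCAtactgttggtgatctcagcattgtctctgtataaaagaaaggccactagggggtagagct
A window of 300 bases, 250 before the start and 50 after it, was available for 14206 of the genes tested, and TGANTCA (the same on both strands) was in 5.59% of these windows. It was in 11.7% of the windows of the genes called lower (7 of 60), in 14.3% of those that HRG raised in control cells (6 of 42) and in 5.56% of the others (1 of 18). The TEAD motif GGAATG or GGAATT, on either strand, was in 16.7% of the windows of genes called lower against 19.7% of all, and the CArG box of SRF in 1.67% against 1.22%. These shares are a description of letters in a window, not of binding.

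MMP10 read 5.68, 5.81 and 6.67 in #1 with HRG and 4.49, 4.41 and 4.95 in #2, a log2 difference of -1.43 (SE 0.19, adjusted p = 8.22e-05). MMP1 read 5.14, 5.35 and 5.60 in #1 and 4.14, 4.12 and 4.25 in #2, a difference of -1.20 (SE 0.11, adjusted p = 9.2e-07). Every array of #2 was below every array of #1 for both genes, and the mean of MMP1 in #2 was under the dim level of 4.27, so that its fold is compressed. For MMP1 the vehicle arrays of both duplexes lay under that level too. Without HRG the arrays of the duplexes overlapped, between 3.80 and 4.06 in both for MMP1, and at 4.02, 4.46 and 4.34 for #1 and 4.13, 4.33 and 4.12 for #2 in MMP10. In parental and NTC cells HRG raised MMP10 by 2.46 and MMP1 by 2.08 on the log2 scale.

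**Figure D1:**
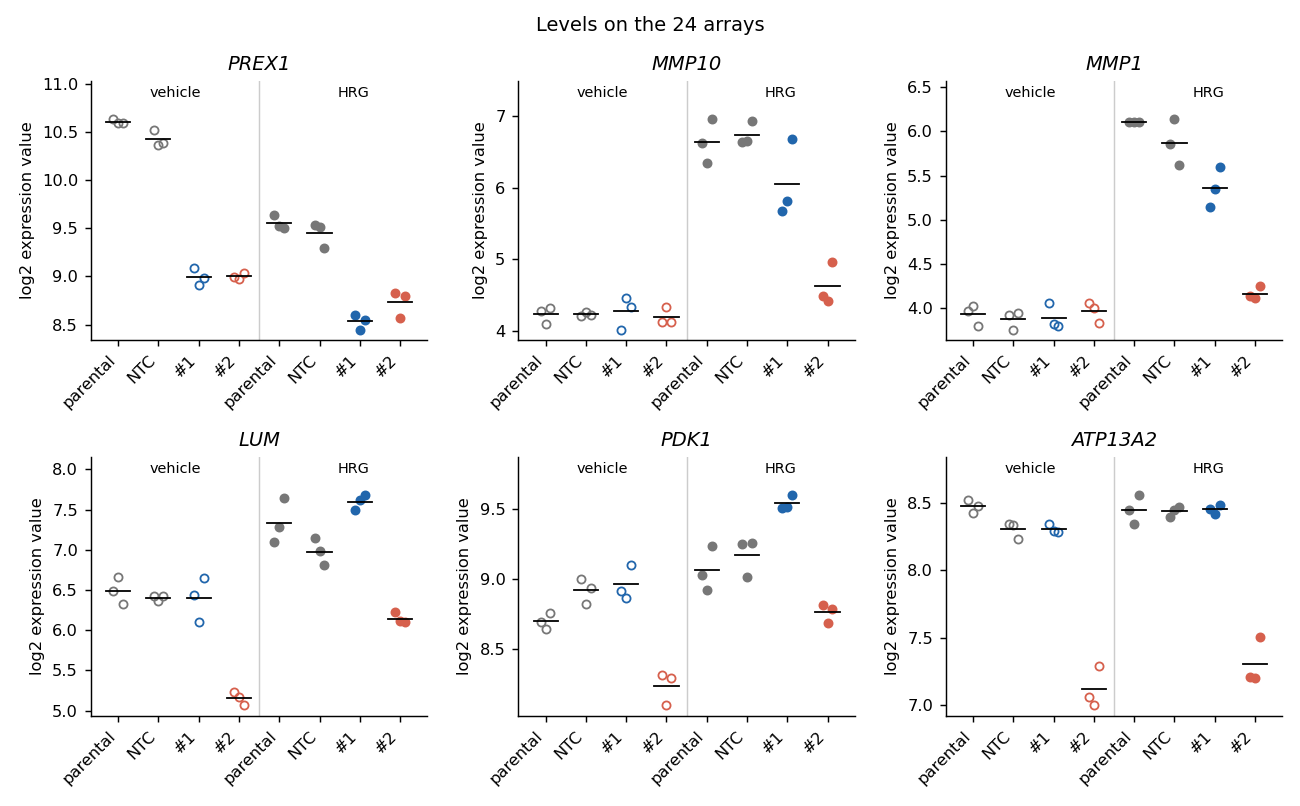
Log2 expression levels (y axis) of PREX1, MMP10, MMP1, LUM, PDK1 and ATP13A2 in all 24 arrays, grouped by culture along the x axis, with open points for vehicle, filled points for HRG and bars for group means. PREX1 overlaps between the duplexes with HRG, MMP10 and MMP1 separate with HRG and overlap without it, and LUM, PDK1 and ATP13A2 are lower with #2 in both conditions.

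Other HRG-induced genes were lower with #2 as well. MAP1B, which encodes a microtubule-associated protein, read 7.45, 7.57 and 7.81 in #1 and 6.08, 6.18 and 6.31 in #2, a difference of -1.42 (SE 0.14, adjusted p = 1.56e-06). SYTL2, a Rab27 effector in vesicle transport, read 8.76, 8.86 and 8.89 in #1 and 7.77, 7.87 and 7.93 in #2, a difference of -0.98 (SE 0.11, adjusted p = 5.34e-06). ANXA1, the calcium-dependent phospholipid-binding protein annexin A1, read 10.68, 10.62 and 10.77 in #1 and 9.90, 9.72 and 9.82 in #2, a difference of -0.88 (SE 0.09, adjusted p = 3.21e-06). For each of these genes the arrays of the duplexes were separate with HRG, and the difference without HRG was -0.19, 0.02 and -0.04. SPRR1A, a cornified envelope protein, fell by 1.13 (SE 0.20, adjusted p = 0.00144), SERPINA3, an inhibitor of serine proteases, by 1.00 (SE 0.15, adjusted p = 0.000344), EPGN, an EGF family ligand, by 0.98 (SE 0.13, adjusted p = 9.21e-05) and SLITRK6, a transmembrane protein with leucine-rich repeats, by 1.08 (SE 0.19, adjusted p = 0.00145). HRG raised these 4 genes in the controls by 1.97, 2.21, 2.04 and 1.44 in that order, and their differences without HRG were -0.10, 0.11, -0.08 and -0.22. The change of the difference with HRG (the interaction described further on) did not pass for any of the 4, with adjusted p of 0.337, 0.0551, 0.0866 and 0.446. With the replicate number as a block it passed for SERPINA3 (adjusted p = 0.0303) and EPGN (adjusted p = 0.0225).

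A second set of falls was present with and without HRG. LUM, which encodes the matrix proteoglycan lumican, read 7.50, 7.61 and 7.68 in #1 with HRG and 6.22, 6.11 and 6.10 in #2, a difference of -1.45 (SE 0.12, adjusted p = 2.63e-07), and the difference without HRG was -1.24. ATP13A2, a lysosomal polyamine transporter, read 8.45, 8.41 and 8.49 in #1 and 7.21, 7.20 and 7.51 in #2, a difference of -1.14 (SE 0.08, adjusted p = 5.84e-09), and -1.19 without HRG. RPF1, a ribosome production factor, read 9.82, 9.95 and 9.82 in #1 and 8.84, 8.89 and 8.46 in #2, a difference of -1.14 (SE 0.10, adjusted p = 2.41e-07), and -1.03 without HRG. The arrays of #2 were thus the lower ones at rest as well, at 8.72, 8.48 and 8.60 against 9.67, 9.53 and 9.70 for RPF1 and at 5.24, 5.17 and 5.07 against 6.44, 6.10 and 6.64 for LUM. Beside LUM stand the other fibroblast markers, of which 0 of 9 were called and whose differences ran from -0.33 for COL1A1 to 0.20 for COL1A2. TIMP2, an inhibitor of metalloproteinases, fell by 0.76 with HRG (SE 0.07, adjusted p = 3.05e-07), with -0.61 without it, and DIAPH1, an actin-nucleating formin, by 0.90 (SE 0.06, adjusted p = 3.06e-09), with -0.60 without it. PWWP3B fell by 0.95 with -0.81 without HRG, and PLEKHH2 by 0.88 with -0.60 without HRG.

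Rises, meaning higher levels in #2 than in #1, were few, and their values against controls are given further on. OLR1, the scavenger receptor for oxidized low-density lipoprotein, read 8.13, 8.10 and 7.99 in #1 and 9.07, 8.83 and 8.73 in #2, a difference of 0.80 (SE 0.09, adjusted p = 3.9e-06), and 1.09 without HRG. TCEA3, a transcription elongation factor, read 8.27, 8.27 and 8.17 in #1 and 8.99, 8.82 and 8.81 in #2, a difference of 0.63 (SE 0.07, adjusted p = 6.67e-06). MCCC2, a subunit of the mitochondrial enzyme methylcrotonyl-CoA carboxylase, rose by 0.60 (SE 0.06, adjusted p = 1.16e-06) at 2 probe sets with identical values. The long noncoding RNA LINC01951 had the largest rise, 0.86 (SE 0.23, adjusted p = 0.0338), and the widest spread among the rises, at 5.01, 4.40 and 5.29 in #1 and 5.53, 5.75 and 6.01 in #2. LINC01951 lost the call without replicate 1 or 2 of #1 or replicate 2 or 3 of #2, at 0.61 to 0.92, MCCC2 without replicate 2 of #1 (0.58) or 1 of #2 (0.55), and TCEA3 without replicate 1 of #2 (0.58). OLR1 was the 1 gene called higher in both conditions, and TCEA3 was the 1 called rise among genes that HRG lowered in control cells.

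The differences between the duplexes with HRG were then set against those without HRG, in which 20 probe sets were lower (0.095% of those tested) and 11 higher (0.0523%). Of the 82 probe sets lower with HRG, 17 were also called lower without it (20.7% of the 82 and 85% of the 20), 64 had a difference below 0 there, and 0 were called in the opposite direction. The median of the 82 was -0.72 with HRG and -0.30 without it. The called falls without HRG that were not called with it were the transporter genes ABCC11 (-0.87, and -0.42 with HRG) and ABCC12 (-0.84, and -0.45) and the pentose phosphate enzyme gene RPIA (-0.60, and -0.57), and they are named because they were only 3. Among the called rises at rest were CCN1, a secreted matricellular protein (0.74, and 0.43 with HRG), and GDF15, a stress-induced cytokine (0.73, and 0.48), which did not pass with HRG and were chosen after their values were seen.

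**Figure D2:**
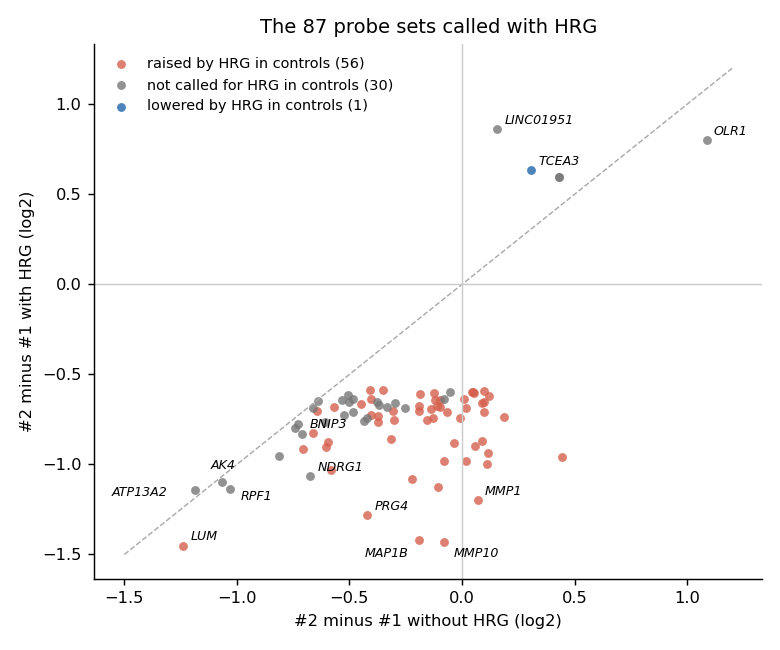
Log2 difference of #2 minus #1 with HRG (y axis) against that without HRG (x axis) for the 87 probe sets called with HRG, coloured by the HRG response of control cells, with a dashed line where both are equal. Of the probe sets, 56 were raised by HRG in controls, 1 was lowered and 30 were not called. MMP10, MMP1 and MAP1B lie near 0 on the x axis, while LUM, ATP13A2 and the called probe set of AK4 lie near the dashed line.

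Of the 82 probe sets lower with #2, 56 were raised by HRG in parental and NTC cells, 26 were not called for HRG there and 0 were lowered. These control arrays entered neither side of the comparison of duplexes, but they did enter the estimate of spread that all groups share. Among the 547 probe sets that HRG raised in controls (2.6% of those tested), 56 (10.2%) were called lower with #2 than with #1 and 0 higher, and the difference was below 0 in 503 (92%), with a median of -0.27 with HRG and -0.02 without it. Among the 567 that HRG lowered (2.69% of those tested), 0 were called lower and 1 higher, the difference was below 0 in 25.4%, and its median was 0.10. Among the remaining 19928, 26 were lower (0.13%) and 4 higher, the difference was below 0 in 46.1%, and its median was 0.01. Of the 65 lower probe sets not called without HRG, 50 were HRG-induced, and of the 17 called in both conditions, 6 were. This split rests on the fold threshold too, since 37 of the 82 were lower without HRG at adjusted p alone. Only 11 of the 82 were called in the interaction described next. The first principal component of the series (53.6% of the variance) gave 14.5, 16.8 and 20.0 for the arrays of #1 with HRG and 5.29, 7.20 and 8.97 for those of #2, with no overlap.

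Whether HRG acted differently under the duplexes was tested as an interaction, the HRG effect in #2 minus that in #1, which uses these same 6 arrays and the 6 vehicle arrays. The HRG effect was called smaller in #2 for 13 probe sets (0.0618% of those tested) and larger for 0 (0%), with 1575 (7.49%) at an unadjusted p under 0.05 in either direction and 0 larger at the adjusted p alone. With the replicate number as a block, the counts were 24 smaller and 1 larger. Among the called, MMP1 had the largest difference, -1.27 (SE 0.16, adjusted p = 0.00153), with HRG effects of 1.47 under #1 and 0.20 under #2, against 2.08 in controls. The means of MMP1 in vehicle (3.89 and 3.97) and in #2 with HRG (4.17) were all under the dim level of 4.27, so these sizes and their order are read against the background. MAP1B followed at -1.23 (SE 0.20, adjusted p = 0.0133), with HRG effects of 2.23 and 1.00 against 2.42. SYTL2 kept a large response under both, 3.07 and 2.07 against 3.60, and differed by -1.0 (SE 0.15, adjusted p = 0.00853). ANXA1 differed by -0.84 (adjusted p = 0.00853), the retinaldehyde dehydrogenase gene ALDH1A3 by -0.83 (adjusted p = 0.00853), the LIM domain gene LMO7 by -0.75 (adjusted p = 0.0133) and the smooth muscle gene CNN1 (calponin) by -0.74 (adjusted p = 0.0285). For ALDH1A3 much of this lay in vehicle, where #2 was higher by 0.50 (adjusted p = 0.00306). With HRG its difference was -0.33, and neither passed the fold threshold. MMP10 did not pass without the block, at -1.35 (SE 0.27, adjusted p = 0.0719), and passed with it (SE 0.23, adjusted p = 0.0173). The same held for GLIPR1, a secreted cysteine-rich protein named after its values were seen, at -1.40 (SE 0.28, adjusted p = 0.0707, and 0.0225 with the block). GLIPR1, which HRG raised by 4.97 in controls, read 10.87, 10.90 and 11.17 in #1 with HRG and 9.92, 9.96 and 10.18 in #2 (-0.96, SE 0.20, adjusted p = 0.00567). In vehicle GLIPR1 read 6.79, 6.39 and 6.48 in #1 and 6.75, 6.45 and 7.78 in #2. Replicate 3 of #2 in vehicle thus lay well above the others, and the interaction of GLIPR1 without that array was not tested. The count of probe sets with a smaller HRG effect was 9 without replicate 3 of #2 with HRG. It was 1 without replicate 3 of #1 with HRG, where MMP1 alone remained. The differences there were close to those with all arrays, at -1.13 for MAP1B (adjusted p = 0.0655), -0.97 for SYTL2 (adjusted p = 0.0504), -0.80 for ANXA1 (adjusted p = 0.0504) and -0.76 for ALDH1A3 (adjusted p = 0.0504).

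Of the glycolysis and hypoxia-response genes, 8 fell with #2 and 19 did not pass. Under low oxygen the factor HIF binds a short core sequence near these genes, and their products carry glucose into the cell, split it to pyruvate and divert pyruvate from the mitochondria. The 8 make up 29.6% of the 27 measured genes of this list, against 0.39% of all probe sets, and 0 were higher. At the wider measures, 17 were lower at adjusted p alone (against 3.61% of all). A difference below 0 was found in 25, against 46.1% of the probe sets not called for HRG in controls. The median was -0.30, against 0.01 for all probe sets. The list was drawn up with results of these arrays known and is no independent evidence of direction or of a difference from other genes. The promoter stretches of called genes that hold the core, ACGTG or GCGTG on either strand, are shown to place the letters, each as the 150 bases just before the RefSeq start on the gene's strand (GRCh38.p14). BNIP3 is on the minus strand at chr10:131981924-131982073, and ENO2 (chr12:6914430-6914579), HK2 (chr2:74833977-74834126), KDM3A (chr2:86441221-86441370) and AK4 (chr1:65147402-65147551) are on the plus strand. AK4 is outside the list and was called at a single probe set but not at its other, so its call is uncertain. Capitals mark the core, CACGTG holds it on both strands, and the stretch of ENO2 also holds a TGANTCA match left in lower case.
BNIP3: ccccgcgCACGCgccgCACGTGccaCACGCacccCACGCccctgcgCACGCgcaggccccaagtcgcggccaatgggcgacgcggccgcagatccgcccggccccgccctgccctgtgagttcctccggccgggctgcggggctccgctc
ENO2: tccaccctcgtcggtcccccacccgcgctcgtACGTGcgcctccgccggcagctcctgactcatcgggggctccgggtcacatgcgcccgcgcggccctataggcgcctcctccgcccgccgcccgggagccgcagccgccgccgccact
HK2: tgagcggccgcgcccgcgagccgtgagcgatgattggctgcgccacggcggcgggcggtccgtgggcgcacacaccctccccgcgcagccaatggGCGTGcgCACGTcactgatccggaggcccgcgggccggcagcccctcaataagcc
KDM3A: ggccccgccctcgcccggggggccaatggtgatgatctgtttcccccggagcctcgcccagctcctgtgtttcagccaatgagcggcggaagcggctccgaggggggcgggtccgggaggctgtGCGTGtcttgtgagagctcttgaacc
AK4: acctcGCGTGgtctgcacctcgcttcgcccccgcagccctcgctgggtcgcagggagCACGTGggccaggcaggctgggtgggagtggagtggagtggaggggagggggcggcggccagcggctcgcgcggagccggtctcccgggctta
The core was in 81.8% of the 300-base windows of the list (18 of 22), in 71.4% of those of its called genes (5 of 7), in 60.0% of those of all genes called lower (36 of 60) and in 56.7% of all windows, so it is common in such windows. PDK1 and PFKP held no match in theirs.

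NDRG1, a stress-responsive gene of the hypoxia list, read 9.14, 9.17 and 9.37 in #1 with HRG and 8.20, 8.02 and 8.26 in #2, a difference of -1.06 (SE 0.07, adjusted p = 3.06e-09). BNIP3, which directs mitochondria to autophagy, read 11.33, 11.41 and 11.32 in #1 and 10.58, 10.53 and 10.46 in #2, a difference of -0.83 (SE 0.07, adjusted p = 3.05e-07). PDK1, the kinase that shuts pyruvate dehydrogenase off, read 9.51, 9.51 and 9.60 in #1 and 8.81, 8.69 and 8.78 in #2, a difference of -0.78 (SE 0.08, adjusted p = 5.16e-06). No array of #2 reached the lowest array of #1 for these 3 genes, and all of them were also called without HRG, at -0.67, -0.71 and -0.73. The enolase gene ENO2 read 7.76, 7.79 and 8.10 in #1 and 7.07, 7.01 and 7.31 in #2, a difference of -0.75 (SE 0.10, adjusted p = 0.000101), and the hexokinase gene HK2 read 9.41, 9.44 and 9.45 in #1 and 8.61, 8.73 and 8.84 in #2, a difference of -0.70 (SE 0.08, adjusted p = 4.08e-06). The phosphofructokinase gene PFKP fell by 0.66 (SE 0.06), the histone demethylase gene KDM3A by 0.66 (SE 0.07) and the glucose transporter gene SLC2A1 by 0.59 (SE 0.09). Without HRG these 5 were not called, at -0.30, -0.31, -0.45, -0.38 and -0.41.

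The list did not move evenly. PFKFB4 had a difference of -0.56 (adjusted p = 0.00143) and missed the fold threshold, VEGFA of -0.31, PGK1 of -0.24, LDHA of -0.20 and ADM of -0.16, while GAPDH (0.04) and SLC2A3 (0.06) were the 2 above 0. Against the controls with HRG the median of the list was 0.17 for #1 and -0.15 for #2, 3 members (NDRG1, ENO2 and PFKP) were called lower with #2 and 0 with #1. The values of PDK1 against controls were 0.42 with #1 and -0.36 with #2, and those of HK2 were 0.49 and -0.21, so that these differences between duplexes were made of smaller ones in opposite directions. AK4, a mitochondrial adenylate kinase, read 10.07, 10.16 and 10.20 in #1 and 9.09, 8.98 and 9.08 in #2 at one probe set (-1.10, SE 0.06, adjusted p = 5.36e-10), but its other probe set, at -0.36 (SE 0.15, adjusted p = 0.196), was not called, so the value of the gene is uncertain.

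**Figure D3:**
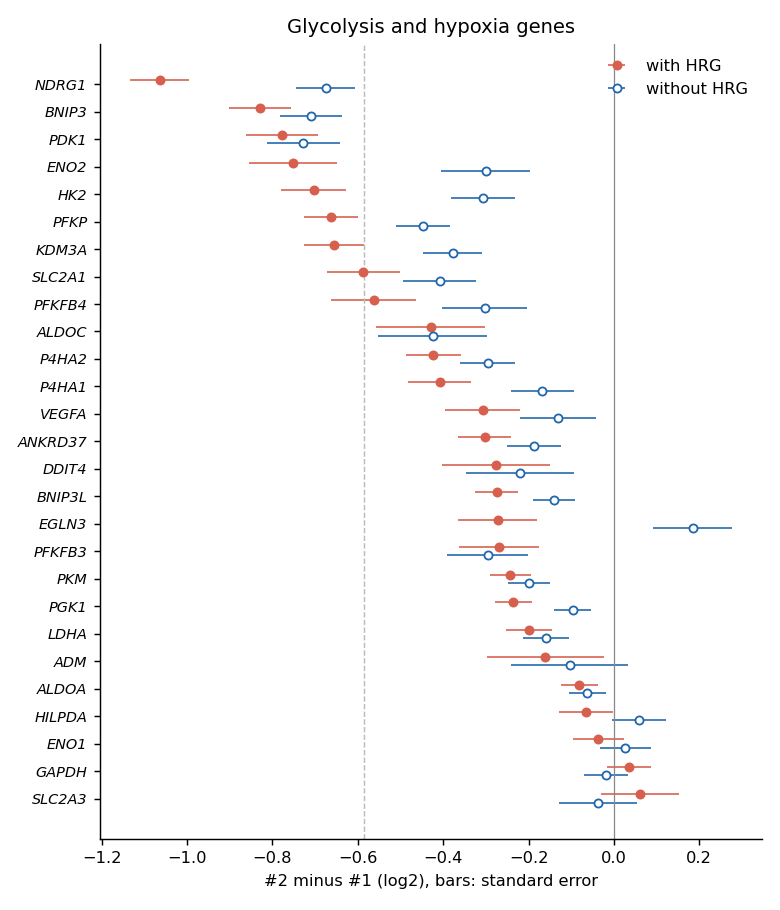
Log2 difference of #2 minus #1 (x axis) for the 27 measured genes of the glycolysis and hypoxia list (y axis), with HRG in filled red and without HRG in open blue, bars showing the SE and the dashed line the 1.5-fold threshold. NDRG1, BNIP3 and PDK1 lie past the line in both conditions, and GAPDH and SLC2A3 lie near 0.

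Integrin and matrix genes had 4 of 30 members lower (13.3%, against 0.39% of all probe sets), 10 lower at adjusted p alone (against 3.61%) and a list median of -0.15. ITGA2, the alpha subunit of a collagen receptor, read 10.63, 10.73 and 10.99 in #1 and 9.83, 9.86 and 10.09 in #2 (-0.86, SE 0.10, adjusted p = 1.17e-05). ITGB6, the beta subunit of an integrin that activates latent TGF-beta, read 8.10, 8.28 and 8.51 in #1 and 7.43, 7.26 and 7.45 in #2 (-0.92, SE 0.11, adjusted p = 3.11e-05). The arrays did not overlap in either gene, and ITGB6 was also called without HRG at -0.71. The focal adhesion gene TNS4 fell by 0.74 (SE 0.14, adjusted p = 0.00212) and ITGB8 by 0.63 (SE 0.09, adjusted p = 8.74e-05), which was lost without replicate 1 of #1 (-0.58) or replicate 3 of #2 (-0.57). Proteases and their inhibitors had 5 of 41 lower (12.2%, against 0.39% of all), 9 lower at adjusted p alone and a median of -0.05. The 5 were MMP10, MMP1, SERPINA3, TIMP2 and the intracellular inhibitor SERPINB8 (-0.74).

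Of ErbB receptors, ligands and regulators, 2 of 28 were lower (7.14%, against 0.39% of all probe sets), EPGN and EREG, both EGF family ligands, with a list median of -0.04. EREG read 5.71, 6.31 and 6.21 in #1 and 5.27, 5.34 and 5.71 in #2 (-0.64, SE 0.16, adjusted p = 0.0175), the nearest arrays of the duplexes were equal to 2 decimals, and the call was lost without any of 4 of the 6 arrays (replicates 2 and 3 of #1 and 1 and 2 of #2), at -0.52 to -0.59. The receptors were not called, with -0.08 for ERBB3 (SE 0.06, adjusted p = 0.515), -0.07 for ERBB4 (SE 0.06, adjusted p = 0.672), -0.05 for EGFR (SE 0.06, adjusted p = 0.747) and -0.02 for ERBB2 (SE 0.06, adjusted p = 0.931). Of 36 genes of the Rac pathway, 1 was lower (2.78%, against 0.39% of all), 6 were lower at adjusted p alone (against 3.61%), and the called gene was the exchange factor VAV2 (-0.65, adjusted p = 0.000312). The median was -0.10, and RAC1 itself stood at -0.01 (SE 0.07, adjusted p = 0.975). DOCK10, among the 15 largest falls, read 7.42, 7.49 and 7.67 in #1 and 6.53, 6.27 and 6.70 in #2 (-1.03, SE 0.11, adjusted p = 3.25e-06).

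Single members of further lists fell. They were EREG among 41 ERK targets and feedback genes (median -0.11), CNN1 among 32 SRF/MRTF targets (-0.62, adjusted p = 0.000344, median -0.04), SPRR1A among 28 keratinocyte genes (median -0.07), the death receptor gene TNFRSF10B among 26 p53 targets (-0.61, median -0.07) and the phosphatidate phosphatase gene LPIN1 among 27 sterol and lipid genes (-0.68, median -0.14). LYN, a Src family kinase, was the 1 of 28 genes of the CXCR4 list (-0.65, adjusted p = 0.00253, median -0.08), and the nuclear receptor gene RORA the 1 of 19 clock genes (-0.60, adjusted p = 0.00155, median -0.08). In the lists of 30 ATF4 and unfolded protein response genes (median 0.08) and 31 lysosomal genes (median 0.00), 2 members fell in each, VLDLR (-0.74, adjusted p = 0.0023) and EDEM1 (-0.68) in the first and ATP13A2 and SYTL2 in the second. Several of these calls lay close to the fold threshold and were lost with 1 array left out. CNN1 was at -0.58 without replicate 3 of either duplex, LPIN1 at -0.58 without replicate 3 of #1, and RORA at -0.54 without replicate 2 of #1 and -0.58 without replicate 3 of #2. TNFRSF10B was at -0.55 without replicate 2 of #1 and -0.57 without replicate 1 of #2, and LYN at -0.52 without replicate 3 of #1 and -0.57 without replicate 2 of #2. With 82 probe sets lower among 21042, these lists held 1 or 2 called members and medians within 0.15 of 0. The called members made up 2.44% (ERK list) to 6.67% (ATF4 list) of a list, against 0.39% of all probe sets. Members with a difference below 0 numbered 26 of 27 in the sterol, 31 of 41 in the ERK and 25 of 32 in the SRF/MRTF list. They numbered 6 of 30 in the ATF4 and 14 of 31 in the lysosomal list. Of the 19928 probe sets not called for HRG in controls, 46.1% were below 0. The share was 92% of those that HRG raised and 25.4% of those that it lowered. At adjusted p alone, 5, 6 and 5 members of the sterol, ERK and SRF/MRTF lists were lower (against 3.61% of all) and 0, 1 and 1 higher (against 1.25%).

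In 15 of the 30 lists 0 members were called. As only 0.413% of all probe sets were called, a count of 0 in lists this small is no result about their members. Counts below 0 stand beside a share of 46.1% among probe sets not called for HRG in controls. Interferon-stimulated genes, which long or unmodified duplexes can induce, had 0 of 45 called, 35 below 0 and a median of -0.10. MX2 was at 0.41 and IRF1 at -0.35. The RNA interference machinery had 0 of 15 and a median of -0.04, with AGO2 at -0.31 and AGO3 at -0.27. NF-kappa B targets had 0 of 33 called, 7 lower at adjusted p alone (against 3.61% of all), 26 below 0 and a median of -0.12, with TNFAIP3 at -0.49 and ICAM1 at -0.43. YAP/TEAD targets had 0 of 27 and a median of -0.02, with CCN1 at 0.43 and ANKRD1 at -0.30. The median was 0.01 over 37 G1/S genes (TK1 at -0.35). It was 0.10 over 31 mitotic genes (HMMR at 0.36), of which 6 were below 0 and 0 passed at adjusted p alone in either direction, and 0.15 without HRG. FOXO targets had a median of 0.00 over 36 genes (PDK4 at -0.46) and estrogen receptor and luminal genes of 0.04 over 29 (TFF1 at -0.39, ESR1 at 0.28). Cytosolic ribosomal proteins had a median of 0.07 over 26 genes, of which 2 were below 0. In 9 of the 26 the arrays did not overlap, with #2 higher, against 8.55% of all probe sets. Ribosome biogenesis factors had a median of -0.02 over 25 genes, heat shock genes of -0.01 over 16 and BCL2 family genes of -0.02 over 17. The marker lists had medians of 0.01 over the luminal, 0.01 over the leukocyte and 0.04 over the endothelial genes, and 0.02 over the fibroblast genes, of which LUM was called.

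**Figure D4:**
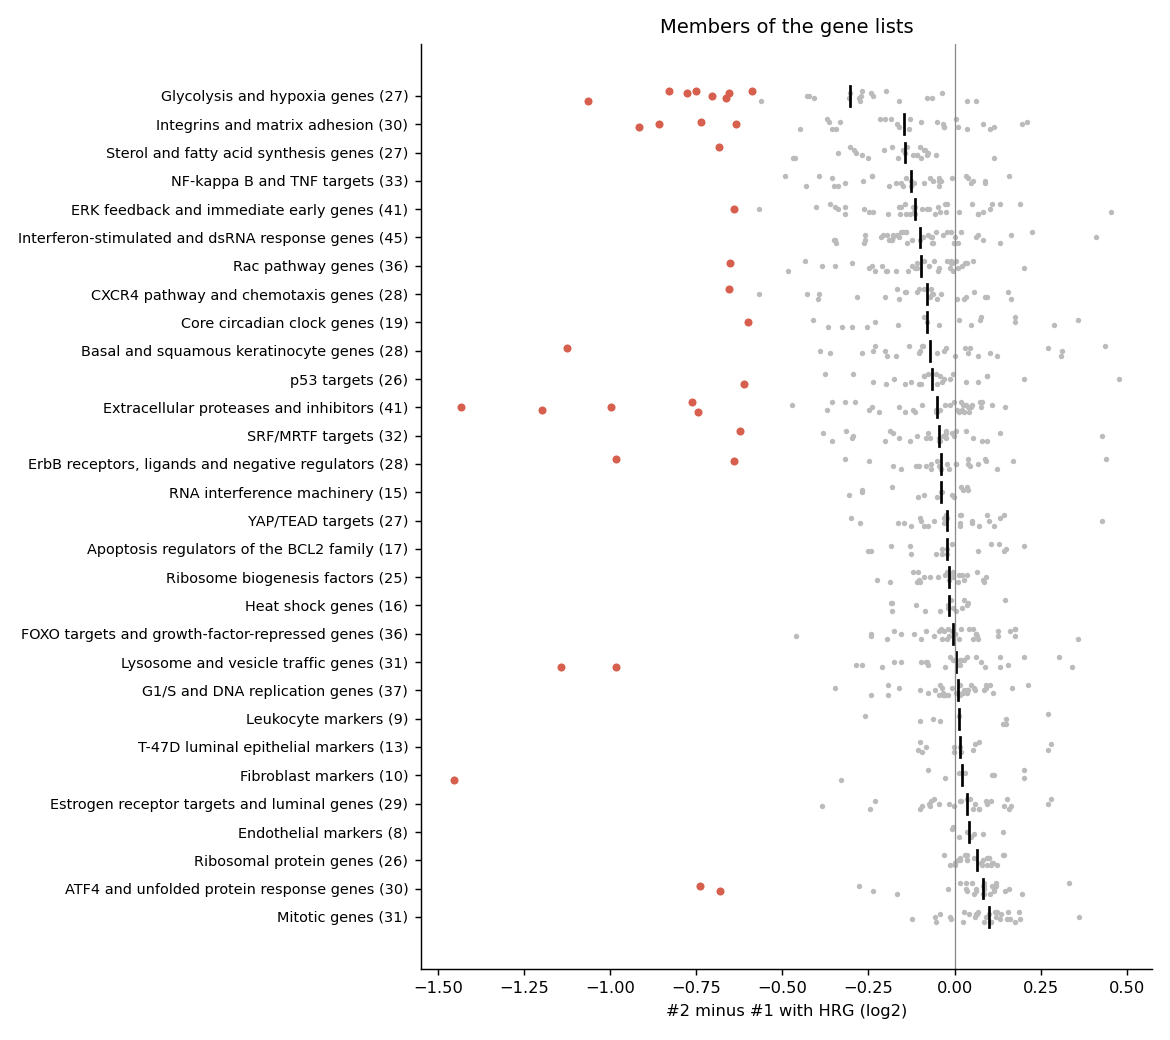
Log2 difference of #2 minus #1 with HRG (x axis) for each measured member of the 30 gene lists (y axis, number of members in brackets), with called members in red and a bar at each median. The glycolysis and hypoxia list has the lowest median, -0.30, and no list has a member called higher.

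Against parental and NTC cells with HRG, the falls between duplexes were mostly on the side of #2. These comparisons share their control arrays, and each shares 3 arrays with the comparison of duplexes, so their values are given side by side only. The 82 lower probe sets had a median of -0.08 in #1 minus controls and of -0.84 in #2 minus controls, 7 were called lower with #1 and 67 with #2, and 1 was called higher with #1. Over all tested probe sets 31 were lower with #1 (0.147%) and 188 with #2 (0.893%), and 8 (0.038%) and 24 (0.114%) were higher, the last becoming 54 without replicate 3 of #2. Without the fold threshold the direction of the counts turned, to 713 higher (3.39%) and 354 lower (1.68%) with #1 and to 1753 higher (8.33%) and 1412 lower (6.71%) with #2. MMP1 stood at -0.63 with #1 and -1.82 with #2, SYTL2 at -0.46 and -1.44, and ATP13A2 at 0.01 and -1.13. The matrix gene LUM stood at 0.44 with #1 and -1.01 with #2. PRG4, the joint lubricant lubricin, read 6.38, 6.16 and 6.11 in #1 and 5.09, 4.90 and 4.83 in #2 (-1.28, SE 0.11, adjusted p = 2.63e-07). Among the 82 it was the 1 called higher with #1 against controls (0.68), with -0.60 for #2. Of the called rises, LINC01951 was called lower with #1 (-0.90, limma adjusted p = 0.0111) and stood at -0.03 with #2. OLR1 stood at -0.29 with #1 and 0.52 with #2, TCEA3 at -0.36 and 0.27, and MCCC2 at -0.32 and 0.27. These last genes were not called against controls with either duplex.

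**Figure D5:**
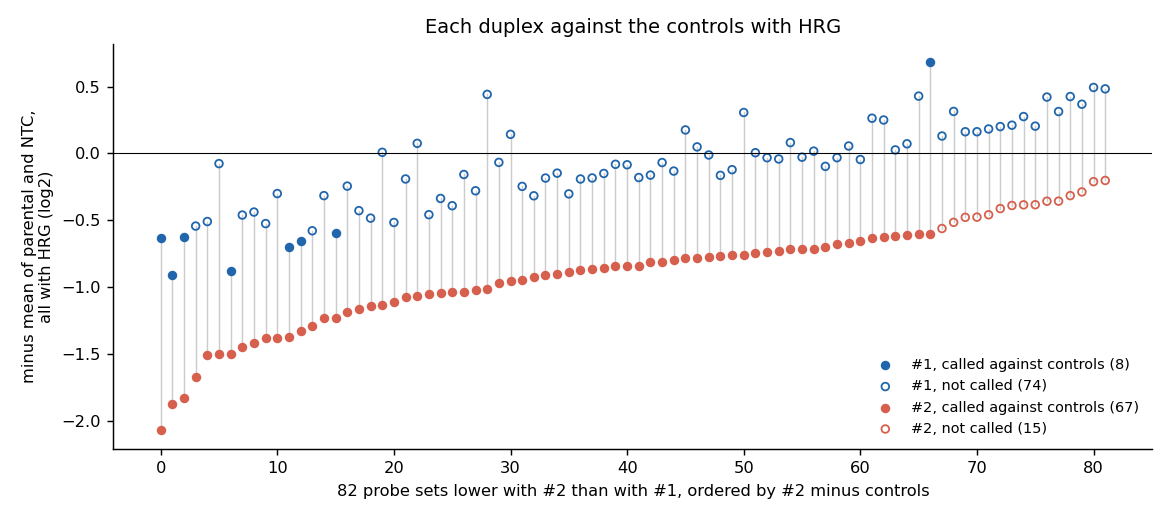
Log2 difference from parental and NTC cells with HRG for the 82 probe sets lower in #2 than in #1, one point per probe set for each duplex, filled where called. With #1, 8 are called and the median is -0.08, and with #2, 67 are called and the median is -0.84.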

How the data were processed

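Log2 expression values of 28536 probe sets on 24 Human Gene 1.0 ST arrays were deposited by the authors after Robust Multichip Average normalization with simpleaffy (no version is named in the sources used here). Array medians lay between 6.04 and 6.18, and array columns not used numbered 0. The platform annotation gave 19292 probe sets with 1 symbol, 1750 with several and 7494 with none, and 19261 of the first matched RefSeq by gene ID. Precision is set by the number of arrays, as no counts exist, and RMA compresses dim probe sets. The replicates are labelled biological, without saying whether cultures were grown apart, and p-values measure only the spread between them.

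All arrays entered 1 linear model with a mean per group (limma 3.58.1, statmod 1.5.0, R 4.3.3). The model was also run on data simulated from the group means and spreads of these arrays, with independent noise per array. That noise lacks the shared deviations of same-numbered arrays given below, so the run is no check of the calls made here. P-values were adjusted by Benjamini-Hochberg over the 21042 probe sets with a symbol, and calls needed an adjusted p below 0.05 with more than 1.5-fold change. Gene lists use the brightest single-symbol probe set of each gene, which can favour a called one. The members and lists were chosen with earlier results of these data known. Same-numbered arrays of the duplexes deviated together (correlations of 0.179, 0.199 and 0.325 with HRG and 0.461, 0.410 and 0.101 without), so the numbers were taken to pair them in the replicate block. The main model left this pairing out, so its calls are those of unpaired groups. The counts and some calls of the interaction differed with the block, as given above. Genes were named if they were PREX1, among the 15 largest rises or falls, the 10 largest called in both conditions, the 10 largest interactions or up to 4 called members of a list, or 2 where none was called, with other probe sets where calls differed, and exceptions are stated. Further members of the glycolysis list, SERPINB8, GLIPR1, the ErbB receptors, RAC1 and the highest markers of other cell types are named outside this rule, after their values were seen. Alternatives were the replicate block, a variance trend, array weights, leaving out dim probe sets (lowest 25%), adding those with no symbol, medians subtracted, other fold thresholds, the compared arrays only, list values averaged over probe sets, and each array left out. Leaving out 4 arrays together and the hypoxia core were added after seeing the data. Promoters are those of RefSeq (GRCh38.p14), and plots were drawn with matplotlib 3.10.9.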

Additional observations from a re-analysis of the deposited data

Results flagged for a closer look

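The difference between the duplexes was not the same with and without HRG, by the interaction test in limma, for 13 probe sets, and in each the HRG effect was smaller with #2. Values are the difference with HRG minus the difference without it, on the log2 scale. The largest were those of MMP1 at -1.27, MAP1B at -1.23 and SYTL2 at -1.0. TMPRSS11E, a membrane-anchored serine protease, gave -0.96 at 2 probe sets, with adjusted p of 0.0144 and 0.0223. PRG4 gave -0.86, ANXA1 -0.84, ALDH1A3 -0.83, LMO7 -0.75, CNN1 -0.74 and SERPINB8 -0.74. The remaining 2 were CYTH3, an exchange factor for ARF GTPases, at -0.71 (adjusted p = 0.0486) and the opsin gene OPN3 at -0.60 (adjusted p = 0.0277). Of 22 alternative settings, the call was lost in 14 for CYTH3, 13 for OPN3 and PRG4, 12 for SERPINB8 and 10 for CNN1. It was lost in 9 and 10 for TMPRSS11E, 7 for LMO7, 2 for SYTL2, ANXA1 and ALDH1A3, and 1 for MAP1B. MMP1 lost it in 0 of 21. Without replicate 3 of #2 with HRG, CYTH3, OPN3, PRG4, SERPINB8, CNN1 and 1 probe set of TMPRSS11E were not called.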

How the results depend on the processing

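Without a fold threshold, calls numbered 263 higher and 760 lower with HRG, 213 and 283 without HRG, 3692 and 4630 for HRG in controls, 713 and 354 for #1 against controls, and 1753 and 1412 for #2. At 2-fold they numbered 0 and 12, 1 and 4, 163 and 82, 0 and 4, and 0 and 47 in the same order, and 2 lower in the interaction. With the replicate block the interaction had 24 lower and 1 higher in place of 13 and 0, and the block moved no other count by more than 1.5 times. Array weights gave 32 lower without HRG and 1 higher in the interaction. Without the 4 arrays that stood apart, calls were 12 higher with HRG, 7 higher without HRG, 6 lower in the interaction and 40 higher for #2 against controls.

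With each array left out in turn, called rises with HRG ran from 2 to 12 and falls from 66 to 105. Without HRG, rises ran from 7 (without #1 vehicle replicate 2) to 19 (without #1 vehicle replicate 1) and falls from 14 to 28. The interaction ran from 1 to 16 lower and from 0 to 1 higher, with 5 lower without replicate 2 of #1 in vehicle or in HRG, 1 without replicate 3 of #1 with HRG, and 6, 8 and 6 without #2 vehicle replicates 1 and 3 and #2 HRG replicate 2. PREX1 ran from 0.15 to 0.28. HRG in controls ran from 525 to 571 higher and 505 to 613 lower, #1 against controls from 7 to 12 and 21 to 41, and #2 against controls from 19 to 54 (without its replicate 3) and 182 to 210. The endothelial gene TEK, not called at 0.08, reversed to -0.035 without #1 HRG replicate 3 and reached 0.17 without #1 HRG replicate 1. The cause of these shifts was not tested. Groups of 3 arrays and dim signals, as for MMP1, limit what could be detected.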
